A study of Mus musculus with 7 samples.

Results

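The genes described here carry long-chain fatty acids into the liver cell, bind them in the cytosol and activate them with coenzyme A. They are 10 genes chosen by symbol, all 10 of which were among the 14889 genes of the count table and passed the filter on low counts, which left 13693 genes for testing. Liver RNA was sequenced from ApoE-/- mice of the C57BL/6 strain aged 4 months, all of which had eaten a Western diet for 3 months. One group of 4 mice was injected with saline and the other group of 3 with PX-478 at 40 mg/kg, in both cases intraperitoneally and bi-weekly. PX-478 is an inhibitor of HIF-1α, the transcription factor that responds to low oxygen, and the comparison asks how liver transcripts differ when it is given. ApoE-/- mice clear remnant lipoproteins poorly and become hypercholesterolaemic, and both groups share this deletion and the diet, so neither is a lean or wild-type reference. Hepatocyte markers were abundant in every library, with Alb, the albumin gene, at 16736 to 25849 CPM.

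Fatty acids released in adipose tissue or from lipoproteins reach the hepatocyte bound to albumin. Membrane proteins such as CD36 and the fatty acid transport proteins (FATP, genes of the Slc27a family) promote their uptake, fatty acid-binding proteins (FABP) hold them in solution, and long-chain acyl-CoA synthetases (ACSL) trap them as acyl-CoA for oxidation or esterification. The FATP enzymes also carry acyl-CoA synthetase activity. In liver, several of these genes are targets of the lipid-sensing nuclear receptors PPARα and PPARγ, while in other tissues CD36, FABP4 and FABP5 belong to macrophages, capillary endothelium and adipocytes.

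No member passed the threshold in the comparison of PX-478 with saline, and Cd36 had the largest difference of the 10. Levels are reads relative to library size (CPM), with library sizes corrected by the TMM method of edgeR. Cd36 had 1.94-fold lower mean CPM in PX-478 livers than in saline livers, and Fabp5 1.81-fold lower. The other FABP genes and Slc27a4 had 1.25-fold to 1.33-fold lower means, while Slc27a2 had a 1.25-fold higher mean, and Slc27a1, Acsl1 and Acsl5 lay closer to equal. In edgeR's quasi-likelihood test 0 of 10 members were called at an adjusted p under 0.05, against 0.0073% of all genes tested. DESeq2 and limma-voom also called 0 of 10, against 0.606% and 0% of all genes. At an unadjusted p under 0.05 in edgeR, 1 of 10 members, Cd36, was lower and 0 were higher, against 3.48% of all genes in each direction. In all, 7 members had negative log2 fold changes, against 50.3% of all genes, and the median of the 10 was -0.32, against -0.0035 for all genes tested. With libraries scaled by their totals, which moves the median of all genes to 0.15, 6 members were negative, and their median was -0.15.

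The libraries held 10285776 to 17257304 counted reads. Genes of the mitochondrial genome took 27.1% to 31.9% of the reads in saline and 36.7%, 22.4% and 32.6% in PX-478 replicates 1, 2 and 3. PX-478 replicate 2 also had the highest TMM factor, 1.29 against 0.888 to 1.05 in the other libraries. Where leaving out a library moved the log2 fold change of a member by over 1.5 times, that value is given beside it or as a range in the closing section. The labels do not state how the mice were housed or their tissue handled, so the p-values reflect only the variation among these 7 samples, some of it possibly technical.

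**Figure D1:**
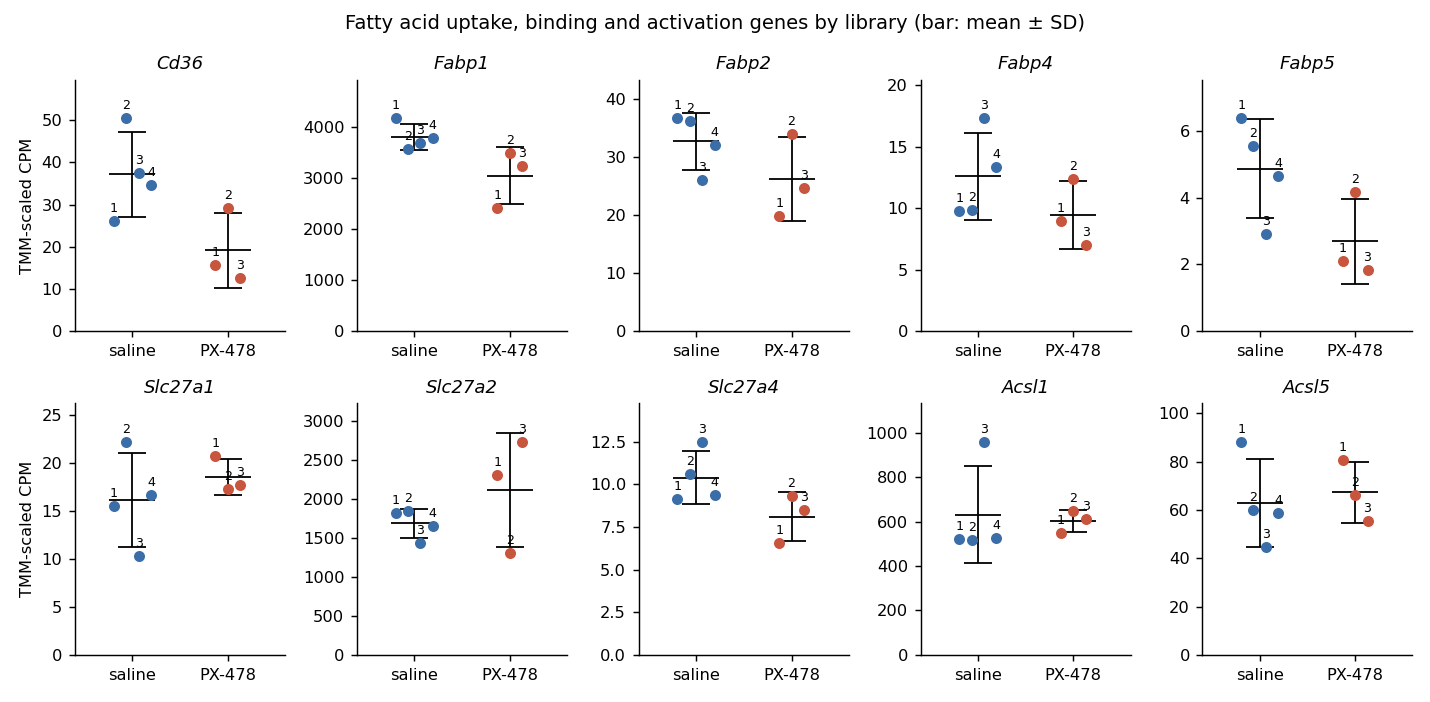
TMM-scaled CPM of the 10 genes in each library, with 4 saline libraries in blue and 3 PX-478 libraries in red. Numbers are replicates, horizontal lines are means and whiskers are 1 SD. Cd36 lies at 26.2 to 50.5 CPM in saline and at 12.6 to 29.1 CPM in PX-478, where replicate 2 is the highest.

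Cd36 (Entrez Gene 12491) lies on chromosome 5 from 17781690 to 17888959 in GRCm38.p6, the assembly behind mm10. It encodes a scavenger receptor that takes up long-chain fatty acids and oxidised low-density lipoprotein. Its level was 26.2, 50.5, 37.4 and 34.7 CPM in saline replicates 1 to 4 and 15.7, 29.1 and 12.6 CPM in PX-478 replicates 1 to 3. PX-478 replicates 1 and 3 lay below every saline library, whereas replicate 2 lay above saline replicate 1, so that the groups overlapped. The means were 37.2 ± 10.1 CPM (SD, n = 4) and 19.1 ± 8.79 CPM (SD, n = 3). Cd36 had a log2 fold change of -0.96 (SE 0.30, 95% interval -1.62 to -0.30), with an unadjusted p of 0.00764 in edgeR's quasi-likelihood test, an adjusted p of 0.541 and rank 191 by p among all genes tested. The log2 fold change was -0.83 without PX-478 replicate 1, -0.73 without replicate 3 and -1.40 without replicate 2, the last with an adjusted p of 0.194. Replicate 2 was the PX-478 library nearest to the saline mean in 10 of 10 members, so leaving it out widened their differences. Without it, 4 of 10 members had an unadjusted p under 0.05 in edgeR, against 8.5% of all genes. Cd36, Fabp2 and Fabp5 were lower and Slc27a2 higher, where 4.25% of all genes lay in each direction. Without PX-478 replicate 1 or 3, 1 of 10 members, Cd36, had an unadjusted p under 0.05. In those fits 274 of 14056 and 575 of 14033 genes were lower at that level. Scaled by library totals the log2 fold change of Cd36 was -0.75, with an unadjusted p of 0.0735 and an adjusted p of 0.806 in edgeR. On that scale 0 of 10 members had an unadjusted p under 0.05, where 130 of 13693 genes were lower and 710 higher.

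In the authors' deposited table the log2 fold change of Cd36 was also -0.96, with an unadjusted p of 0.00057. The deposited counts hold 2 nearly identical columns per mouse. When all 14 columns were entered as if they were separate libraries, an alternative added after seeing the data, the unadjusted p of Cd36 in edgeR was 0.000675 and its adjusted p 0.016. In that fit 1 of 10 members was called, against 9.97% of all genes tested, and 6 of 10 were lower at an unadjusted p under 0.05, against 13.3%. With 1 value per mouse these counts were 0 and 1.

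**Figure D2:**
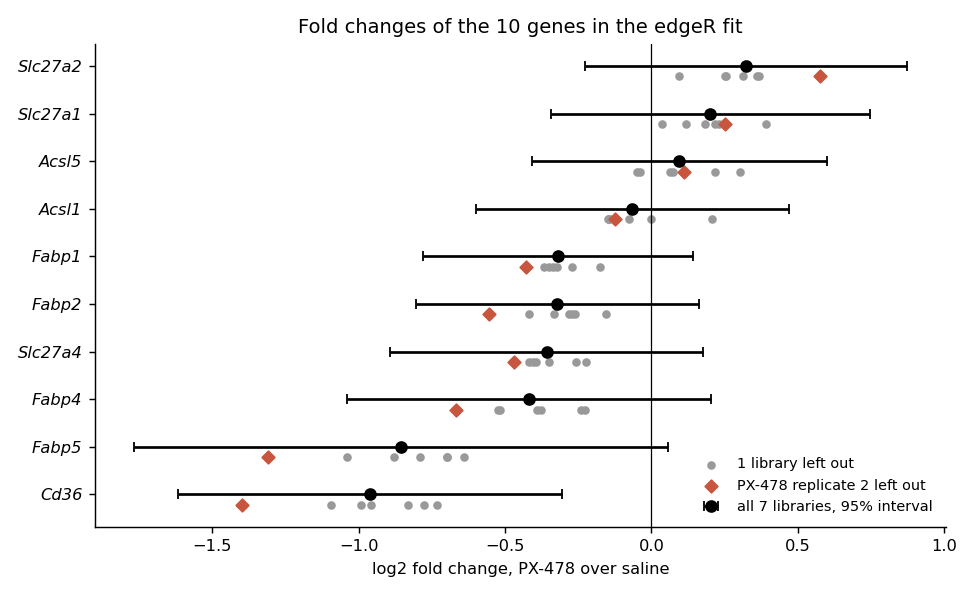
Log2 fold changes of PX-478 over saline for the 10 genes (x axis), with 95% intervals from the edgeR fit of all 7 libraries in black. Grey points leave out 1 library each and red diamonds leave out PX-478 replicate 2. The interval of Cd36 runs from -1.62 to -0.30 and the other 9 intervals include 0.

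Cd36 is made by several liver cell types, and in whole liver, fewer cells of a type and less RNA per cell cannot be told apart. On the TMM scale macrophage markers had lower values in PX-478 for 9 of 9 genes tested, against 50.3% of all genes, with a median log2 fold change of -0.45. Library totals move the median of all genes to 0.15, so the direction of values near 0 depends on the scale. The summed level of these markers was 282 to 589.8 CPM in saline and 272 to 389 CPM in PX-478. Cd68, a lysosomal glycoprotein of macrophages, stood at 21.4 to 29.3 CPM in saline and 12.7 to 14.6 CPM in PX-478, and lysozyme (Lyz2) at 38.6 to 71.4 and 24.3 to 28.5 CPM. In both genes the groups did not overlap under either scaling. Of all genes, 4.29% were lower without overlap with TMM and 1.47% with library totals. Of the 9 macrophage markers, 3 were lower without overlap with TMM. Clec4f, a lectin of Kupffer cells, overlapped, at 64.3 to 166 and 81.8 to 141 CPM. Csf1r, the receptor that macrophages need to survive, had a log2 fold change of -0.01 (95% interval -0.47 to 0.45). Markers of lipid-laden macrophages, among them Lpl, had lower values in 6 of 7 genes, with a median of -0.64. Their summed levels on the TMM scale were 486 to 565 CPM in saline and 288 to 465 CPM in PX-478. On that scale 4 of the 7, Gpnmb, Lgals3, Ctsd and Lpl, were lower without overlap. With library totals the groups overlapped in each of these 4. Endothelial markers had higher values in 6 of 8 genes, with a median of 0.26 and summed levels of 159.8 to 234 and 197 to 238.5 CPM. Pecam1 and Cdh5 were the 2 with lower values, with log2 fold changes of -0.47 and -0.09. Pecam1 stood at 12.7 to 16.9 CPM in saline and 9.66 to 10.3 CPM in PX-478 on this scale. None of these macrophage and endothelial markers passed the threshold.

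Set against a marker within the same library, the log2 ratio of Cd36 to Cd68 reads was 0.48 ± 0.35 (SD, n = 4) in saline and 0.37 ± 0.63 (SD, n = 3) in PX-478. That of Cd36 to Stab2, a scavenger receptor of sinusoidal endothelium, was -0.72 ± 0.49 and -2.24 ± 0.81. The ratio to Cd68 differed between the groups by less than either SD, and the ratio to Stab2 was lower in PX-478, with overlap. Each of these ratios rests on 1 marker of its cell type. Cd68 itself had a log2 fold change of -0.91, against -0.18 for Clec4f and -0.01 for Csf1r. The endothelial markers differed in direction, so other markers would give other ratios. The ratios were chosen after seeing the data, and the part of any cell type in the Cd36 result was not tested. Of the adipocyte markers, Adipoq, Plin1, Lep and Retn were not found by symbol among the 14889 genes of the count table. All genes of that table exceeded 0.5 CPM in at least 2 count columns. Cfd, which adipocytes make, was the 1 gene of all tested that passed the threshold, with a log2 fold change of -5.89, while Lipe, Cidec and Car3 had 0.37, 0.18 and 0.04.

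**Figure D3:**
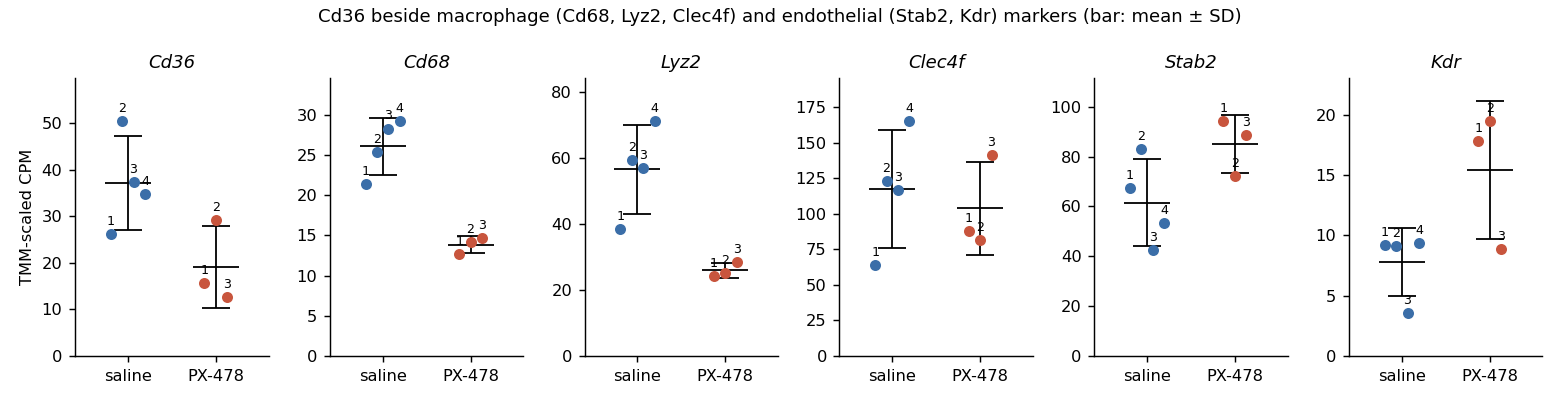
TMM-scaled CPM of Cd36 beside the macrophage markers Cd68, Lyz2 and Clec4f and the endothelial markers Stab2 and Kdr, by library (blue saline, red PX-478; numbers are replicates; lines and whiskers are mean ± SD). Cd68 falls in separate ranges, 21.4 to 29.3 and 12.7 to 14.6 CPM, whereas Cd36 overlaps through PX-478 replicate 2. Pecam1, an endothelial marker with lower values in PX-478, is not shown.

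Among the binding proteins, liver FABP (Fabp1, Entrez Gene 14080, chromosome 6 from 71199879 to 71205034) is the major fatty acid carrier of the hepatocyte cytosol. It supplied 99.2% ± 0.0478 (SD, n = 4) of the summed level of the 4 FABP members per kilobase of exon in saline and 99.3% ± 0.121 (SD, n = 3) in PX-478. Its level was 4170.3, 3562, 3679.6 and 3788 CPM in saline replicates 1 to 4 and 2417, 3485 and 3236 CPM in PX-478 replicates 1 to 3. The groups did not overlap on this scale, as in 4.29% of all genes lower in PX-478, and did overlap when libraries were scaled by their totals, where 1.47% of all genes were lower without overlap. Fabp1 had a log2 fold change of -0.32 (SE 0.21, 95% interval -0.78 to 0.14) and an adjusted p of 0.796. It was -0.17 without PX-478 replicate 1 and -0.15 with library totals.

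Of 6 hepatocyte markers none passed the threshold. Their log2 fold changes ran from -0.57 in Ttr to 0.55 in Cps1, 5 of them negative, with a median of -0.34 and -0.32 in Alb (95% interval -0.83 to 0.18). Their summed level was 36182 to 51837 CPM in saline and 31988 to 39123 CPM in PX-478. The log2 ratio of Fabp1 to Alb reads was -2.62 ± 0.15 (SD, n = 4) in saline and -2.63 ± 0.24 (SD, n = 3) in PX-478, a gap smaller than the SD of either group. For comparison, Slc27a2 over Alb was -3.80 ± 0.32 and -3.21 ± 0.80, and Acsl1 over Alb was -5.26 ± 0.38 and -4.95 ± 0.17, both with overlap. These ratios rest on 1 hepatocyte marker and, like the other marker ratios, were chosen after seeing the data. The hepatocyte markers differed in direction, so other markers would give other ratios.

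Intestinal FABP (Fabp2), adipocyte FABP (Fabp4) and epidermal FABP (Fabp5) stood far below Fabp1. Fabp2, the form of the enterocyte, lay at 26.04 to 36.7 CPM in saline and 19.9 to 34.0 CPM in PX-478 (log2 fold change -0.32, 95% interval -0.81 to 0.16). Its log2 fold change was -0.56 without PX-478 replicate 2, -0.15 without PX-478 replicate 1 and -0.14 with library totals. Fabp4, carried by adipocytes, macrophages and capillary endothelium, stood at 9.77, 9.89, 17.3 and 13.3 CPM in saline and 8.92, 12.4 and 6.98 CPM in PX-478. Saline replicate 3 was the highest and the groups overlapped (log2 fold change -0.42, 95% interval -1.04 to 0.20). For Fabp4 the value was -0.67 without PX-478 replicate 2, -0.24 without PX-478 replicate 3, -0.23 without saline replicate 3 and -0.21 with library totals.

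Fabp5, found in macrophages and in epithelia, stood at 6.38, 5.55, 2.91 and 4.64 CPM in saline and 2.09, 4.16 and 1.83 CPM in PX-478. Behind these were 44 to 98 reads per saline library and 28 to 55 per PX-478 library. PX-478 replicates 1 and 3 lay below every saline library and replicate 2 lay above saline replicate 3. Fabp5 had a log2 fold change of -0.86 (SE 0.42, 95% interval -1.77 to 0.06, adjusted p = 0.728), and without PX-478 replicate 2 of -1.31 with an adjusted p of 0.464. Without PX-478 replicate 1 or 3 the log2 fold change of Fabp5 was -0.70 or -0.64. Relative to Cd68 reads its log2 ratio was -2.46 ± 0.66 (SD, n = 4) in saline and -2.44 ± 0.62 (SD, n = 3) in PX-478. That of Fabp4 was -1.08 ± 0.27 and -0.59 ± 0.44, higher by 0.49 in PX-478 with overlap. Cd68 itself had a log2 fold change of -0.91, against -0.01 for Csf1r. These ratios were also chosen after seeing the data and depend on the marker. The annotation holds 5 other genes with at least 200 bases at 90% or more identity to Fabp5 transcripts, so its count is uncertain. Slc27a1, Slc27a2 and Acsl1 have 1 such gene each, and non-coding genes overlap Fabp2, Acsl1 and Acsl5, whose reads cannot be told apart where strand was not used.

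Among the transport proteins, Slc27a2 (Entrez Gene 26458, chromosome 2 from 126553024 to 126588243) encodes FATP2, a form made in liver, which takes up fatty acids and activates very long chain ones in peroxisomes. It supplied 98.6% ± 0.166 (SD, n = 4) of the transcripts of the 3 FATP members per kilobase in saline and 98.7% ± 0.499 (SD, n = 3) in PX-478. Other FATP genes, such as Slc27a5, do not enter this share. The level of Slc27a2 was 1818, 1853, 1442 and 1655 CPM in saline and 2308, 1305 and 2737 CPM in PX-478. PX-478 replicates 1 and 3 exceeded every saline library, while replicate 2 was the lowest of all 7 on the TMM scale. By library totals replicate 2 stood at 1677 CPM, within the saline range of 1289.8 to 1949 CPM. Slc27a2 had a log2 fold change of 0.32 (SE 0.25, 95% interval -0.23 to 0.87, adjusted p = 0.836), with 0.57 (adjusted p = 0.464) without PX-478 replicate 2 and 0.094 without PX-478 replicate 3.

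Slc27a1 (FATP1), the form of muscle and adipose tissue, lay at 10.3 to 22.2 CPM in saline and 17.2 to 20.7 CPM in PX-478 (log2 fold change 0.20, 95% interval -0.34 to 0.75). This value was 0.036 without saline replicate 3, 0.39 without saline replicate 2, 0.12 without PX-478 replicate 1 and 0.32 with library totals. Slc27a4 (FATP4), the form of intestine and skin, lay at 9.12 to 12.5 and 6.55 to 9.30 CPM (log2 fold change -0.36, 95% interval -0.89 to 0.18), with -0.22 without PX-478 replicate 1 and -0.20 with library totals. Both pairs of groups overlapped.

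Of the synthetases, Acsl1 is the main long-chain form of hepatocytes and supplies acyl-CoA for both oxidation and triglyceride synthesis. Acsl1 stood at 523, 518, 959 and 528 CPM in saline and 551, 649.6 and 612 CPM in PX-478. Saline replicate 3 stood apart from the other saline libraries. Acsl1 had a log2 fold change of -0.07 (95% interval -0.60 to 0.47), without saline replicate 3 it was 0.21, and scaled by library totals 0.11. Acsl5, a synthetase of mitochondrial and endoplasmic reticulum membranes, lay at 44.8 to 88.2 CPM in saline and 55.5 to 80.5 CPM in PX-478 (log2 fold change 0.10, 95% interval -0.41 to 0.60). Without saline replicate 3 or without PX-478 replicate 1 it was -0.04 or -0.05. Neither synthetase had a direction that held in every setting.

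Per kilobase of exon, over all 7 libraries, the order of the mean levels was Fabp1, Slc27a2, Acsl1, Fabp2, Acsl5, Fabp4, Cd36, Slc27a1, Fabp5 and Slc27a4. Fabp1 stood at 6287 CPM per kilobase, Slc27a2 at 642, Acsl1 at 149 and Fabp2 at 31.0, and the ranges of the first 4 did not overlap. From Fabp2 downwards each gene overlapped its next lower neighbour over the 7 libraries, down to Slc27a4 at 2.32 CPM per kilobase. Acsl5 at 15.3, Fabp4 at 12.5, Cd36 at 8.33, Slc27a1 at 6.05 and Fabp5 at 3.99 therefore have an order that the libraries do not all share. Fabp1, Slc27a2 and Acsl1 are the hepatocyte forms of their families.

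Within a library, the ratio of 2 members does not depend on how libraries are scaled, and 8 such ratios were tested. The test was a two-sided exact permutation of the group labels, with 35 assignments and a smallest possible p of 0.0286. None passed, at adjusted p of 0.61 or higher. After adjustment over the 8 ratios, a single ratio at the smallest possible p could not pass, so this outcome says little about any 1 ratio. The largest difference was that of Cd36 over Slc27a2. In saline this log2 ratio spanned -6.12 to -5.20, and the PX-478 libraries spanned -7.76 to -5.48, a difference of -1.28 in the means (exact p = 0.143, adjusted p = 0.61). The difference was -1.94 without PX-478 replicate 2 and -0.80 without PX-478 replicate 3. PX-478 replicates 1 and 3 lay below every saline library. For Fabp2 over Fabp1 the group means of the log2 ratio, -6.87 ± 0.21 (SD, n = 4) and -6.88 ± 0.18 (SD, n = 3), lay closer together than 1 SD. For Fabp5 over Fabp1 they were -9.65 ± 0.45 (SD, n = 4) and -10.2 ± 0.54 (SD, n = 3), and for Slc27a4 over Slc27a2 -7.35 ± 0.34 and -7.97 ± 0.73, with an exact p of 0.229 each. The difference for Fabp5 over Fabp1, -0.55, was -0.27 without PX-478 replicate 3. That for Slc27a4 over Slc27a2, -0.62, was -1.05 without PX-478 replicate 2 and -0.38 without PX-478 replicate 1.

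The promoters of Fabp1, Cd36 and Slc27a2 are shown because these genes belong to the binding and uptake steps and because PPAR and HIF recognise known letters. PPARα binds a direct repeat spaced by 1 base, searched as AGGNCANAGGNCA, with AGGTCA as the single hexamer, and HIF binds sequences searched as ACGTG, each on both strands. Each run covers the 250 bases before a transcript start, 5′ to 3′ on the gene's strand, from RefSeq on GRCm38.p6, where 8 of the 10 members had an entry, Fabp4 and Fabp5 excepted. Capitals mark the direct repeat in Fabp1, AGGTCA on the opposite strand in Cd36 and ACGTG in Slc27a2.
Fabp1, chr6:71199629-71199878, plus strand: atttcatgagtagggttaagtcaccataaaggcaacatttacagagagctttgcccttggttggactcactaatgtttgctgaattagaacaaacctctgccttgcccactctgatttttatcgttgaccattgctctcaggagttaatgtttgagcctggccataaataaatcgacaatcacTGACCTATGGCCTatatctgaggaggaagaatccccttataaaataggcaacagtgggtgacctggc
Cd36, chr5:17835897-17836146, minus strand: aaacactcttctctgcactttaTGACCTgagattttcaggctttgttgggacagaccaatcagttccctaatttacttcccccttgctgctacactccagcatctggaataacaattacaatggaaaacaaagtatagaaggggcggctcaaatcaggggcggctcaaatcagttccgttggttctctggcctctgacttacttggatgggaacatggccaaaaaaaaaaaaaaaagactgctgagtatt
Slc27a2, chr2:126552774-126553023, plus strand: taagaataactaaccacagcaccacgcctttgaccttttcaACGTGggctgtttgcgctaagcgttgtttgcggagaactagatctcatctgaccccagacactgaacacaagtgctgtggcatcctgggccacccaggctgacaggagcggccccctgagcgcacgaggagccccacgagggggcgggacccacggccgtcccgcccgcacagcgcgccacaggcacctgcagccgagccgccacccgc

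The direct repeat of Fabp1 lies 67 to 55 bases before the start, read on the opposite strand, and overlaps one of the 2 AGGTCA matches in that window. Of all 32851 windows of this length, 0.338% hold the direct repeat, and of the 11 windows of the members only that of Fabp1 does. AGGTCA is found in 14.02% of all windows and, among the members, only in those of Cd36, Fabp1 and Slc27a2. The printed windows are thus the same 3 that hold it, and those of the other members are not shown. ACGTG is found in 16.6% of all windows and in windows of Slc27a1 and Slc27a2. No other form of the HIF sequence was searched, so windows without ACGTG may still hold one. The Cd36 window belongs to one start, inside the span given for the gene, and the bases after that start were not found in a GENCODE M21 transcript. A match is only a description of letters, and no binding was measured.

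Other genes of the same steps were taken from fixed lists, and none of them passed the threshold. The 10 other uptake genes that could be tested split into 4 higher and 6 lower (median -0.09). Lpl, lipoprotein lipase, which frees fatty acids from circulating triglyceride, stood at 145 to 216 CPM in saline and 83.0 to 139 CPM in PX-478, without overlap on this scale (log2 fold change -0.63, SE 0.23). Scarb1, the receptor for high-density lipoprotein, had 0.55 (SE 0.23), and Got2, which has also been described as a plasma membrane fatty acid-binding protein, had -0.23. Among 7 other binding genes, 1 was higher and 6 lower, with a median of -0.26. Scp2, the sterol carrier protein of peroxisomes, stood at 1963 to 2520.5 CPM in saline and 1407 to 1558 CPM in PX-478, and its groups did not overlap under either scaling (log2 fold change -0.55, SE 0.20, adjusted p = 0.602). Fabp7, brain FABP, had -0.89 (SE 0.43) and Dbi, the acyl-CoA-binding protein, -0.55 (SE 0.28).

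Genes of fatty acid activation outside the 10 split in direction, with 5 of 10 higher and 5 lower and a median of 0.18. Acsm3, a medium-chain synthetase, stood at 4.16 to 6.01 CPM in saline and 8.47 to 12.3 CPM in PX-478, without overlap under either scaling (log2 fold change 1.14, SE 0.27, adjusted p = 0.269). Acss2, which activates acetate in the cytosol, had 1.00 (SE 0.32), and Acsf3, which activates malonate in mitochondria, -0.73 (SE 0.27). Among 10 acyl-CoA thioesterases, which undo the activation, 7 were higher and 3 lower, with a median of 0.32. Acot4, Acot1 and Acot9 had log2 fold changes of 1.27 (SE 0.48), 1.07 (SE 0.49) and 0.77 (SE 0.46), and Acot1 lay at 1.04 to 6.89 CPM in saline and 4.99 to 10.8 CPM in PX-478. At an unadjusted p under 0.05 in edgeR, 3 activation genes and 2 thioesterases were higher and 2 activation genes lower, where 3.48% of all genes lay in each direction.

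**Figure D4:**
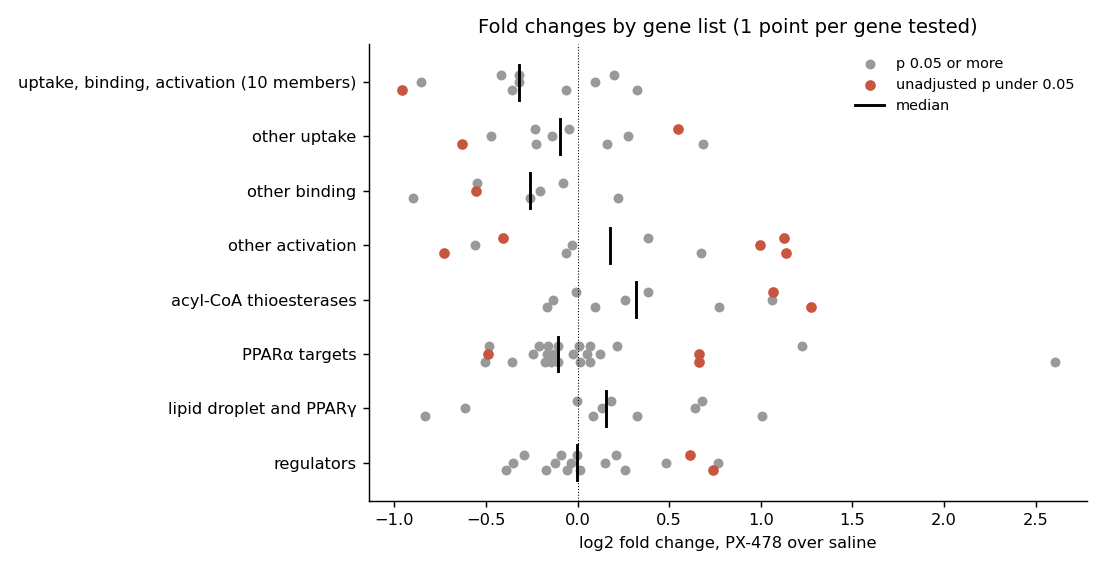
Log2 fold changes of PX-478 over saline (x axis) for the genes tested in each list, 1 point per gene, with medians as black bars and genes at an unadjusted p under 0.05 in red. The 10 genes of uptake, binding and activation have a median of -0.32, other binding genes of -0.26 and thioesterases of 0.32.

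Targets of PPARα outside the 10 did not share a direction, with 11 of 25 higher, 14 lower and a median of -0.11. Ehhadh, the bifunctional enzyme of peroxisomal oxidation, stood at 29.0 to 31.8 CPM in saline and 40.6 to 53.1 CPM in PX-478, without overlap under either scaling (log2 fold change 0.66, SE 0.17, adjusted p = 0.381). Acaa1b, a peroxisomal thiolase, had 0.66 (SE 0.28), while Plin2, the lipid droplet coat protein, had -0.49 (SE 0.21). Lipid droplet and PPARγ genes had 7 of 10 higher and a median of 0.16, and Pnpla2, the triglyceride lipase, had 0.32, Gpam, which starts glycerolipid synthesis, 0.64 and Plin4, another droplet protein, -0.83.

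Of 17 regulators, 8 were higher and 9 lower with a median of -0.0035, and none passed. Ppara itself had a log2 fold change of 0.15 (95% interval -0.46 to 0.76). Pparg held 6.48 to 8.99 CPM in the saline livers, whereas PX-478 replicates 1 to 3 held 3.13, 16.8 and 3.26 CPM, so that replicate 2 was above and the other libraries of the group below every saline library. Cd36 was highest in that same library within its group, as were Fabp1, Fabp2, Fabp4, Fabp5, Slc27a4 and Acsl1. In saline, Pparg was highest in replicate 1, the library where Cd36 was lowest. A link between Pparg and these genes was not tested. Srebf1, the regulator of fatty acid synthesis, had 0.74 (SE 0.27), Nr1h4, the bile acid receptor FXR, 0.61 (SE 0.24), Nr1i2, the xenobiotic receptor PXR, 0.48 (SE 0.26) and Nr1i3, its relative CAR, 0.76 (SE 0.46). The other regulators had log2 fold changes from -0.39 in Foxa1 to 0.26 in Ppard, with Hif1a at -0.06.

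The genes whose log2 CPM followed a member most closely over the 7 libraries were ranked by Pearson's r among 11331 genes, and with 7 points that share their scaling such values are only descriptive. For Cd36 they were Gm19619, a long non-coding RNA, with r of 0.989, Cd63, a tetraspanin of lysosomes, with 0.962, and Siglech, a lectin of plasmacytoid dendritic cells, with 0.957. Siglech stood at 3.13 to 6.87 CPM in saline and 0.326 to 2.42 CPM in PX-478. For Fabp1 they were the pseudogene Dnajc19-ps, Arl6ip1 and Pfn1, with r of 0.998, 0.995 and 0.984. For Fabp5 the closest was Aqp8, a water channel of hepatocytes, with 0.976, at 38.3 to 112 CPM in saline and 11.6 to 38.6 CPM in PX-478, followed by Cdkal1 and Mocos at 0.971 each. For Fabp2 they were Fitm2, Traf3ip1 and Pepd, with r of 0.969, 0.953 and 0.950, and for Fabp4 they included Pip5k1a and Gfpt1, with 0.996 and 0.982. Fitm2 encodes a protein that helps package triglyceride into lipid droplets. Slc27a1 was followed by Cyp4b1, Zmat1 and Phka1 (0.982, 0.980 and 0.977), Slc27a2 by Tmem63b, Nek3 and Ammecr1l (0.987, 0.984 and 0.982) and Slc27a4 by Gm6485, Parva and Creg1 (0.984, 0.979 and 0.975). For Acsl1 they were Gtpbp4, Clptm1l and Txlna (0.992, 0.990 and 0.989), all high in saline replicate 3, and for Acsl5 Phf21a, Acat2 and Casd1 (0.977, 0.974 and 0.962).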

How the data were processed

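Members and gene lists were chosen with earlier results of these data known. The authors deposited whole-number read counts per gene, 2 columns per sample. Per the submitters' processing notes, the tools were featureCounts and edgeR and the build mm10. Versions, the aligner and any use of strand are not given in the sources used here. Both columns of a sample differed by less than the sampling noise (chi-square per gene 0.291 to 0.765, against 49.2 to 146 between libraries of a group) and their rounded mean was counted as 1 sample. The fold changes in the authors' deposited table are on the log2 scale, and the authors' p-value beside them is not adjusted. The table has 7 more columns, an average per sample, which were left out.

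Genes were filtered with filterByExpr, scaled by TMM and tested with edgeR 4.0.16 (quasi-likelihood F test, robust, no covariates, Benjamini-Hochberg over 13693 genes, threshold 0.05), after the test was tried on simulated data. DESeq2 1.42.0 and limma 3.58.1 were alternatives, beside other scalings, filters, single columns, a replicate block and leaving out each library. SEs were obtained by dividing the size of each log2 fold change by √F. Ratios of members add 0.5 reads. A count of 3 reads in 1 library is 0.188 to 0.26 CPM, covering counting error only. Exon lengths are from GENCODE M21, positions from RefSeq on GRCm38.p6. Named genes are the 10 members, fixed regulators, the 3 smallest p-values of each list, the markers beside a member and the 3 most similar genes of each member, of which 1 is not reported here.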

Additional observations from a re-analysis of the deposited data

Results flagged for a closer look

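Acsl1 in saline replicate 3 stood at 959 CPM, apart from the other saline libraries at 518 to 528 CPM. The gap to the nearest library was 0.978 of the group's range, past Dixon's 95% critical value of 0.829 for 4 samples. Of 18 groups of values examined, 10 members and 8 ratios in saline, 1 was flagged, where chance flags about 1 in 20. Genes whose pattern was closest to that of Acsl1 were also high in that library: Gtpbp4 stood at 59.1 CPM there and at 23.9 to 27.3 CPM in the other saline libraries, and Txlna at 63.4 against 28.8 to 31.4 CPM.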

How the results depend on the processing

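Over 20 alternatives, the members past the threshold numbered 0 in all but one, the fit of all 14 columns as libraries, which gave 1. The count over all genes was 1, and 5 with library totals, 83 in DESeq2, 0 in limma-voom, 3 with the replicate block and 1360 with all 14 columns. Leaving out 1 library gave 1 to 5, with 5 where the library was saline replicate 4 or replicate 2 or 3 of PX-478. Cd36 kept a negative log2 fold change throughout, from -1.40 to -0.73, with adjusted p from 0.016 to 1.00. Acsl1 turned to 0.11 with library totals and ran from -0.15 to 0.21 without 1 library each, and Acsl5 from -0.048 to 0.30, below 0 without saline replicate 3 (-0.038) or PX-478 replicate 1. Without 1 library each, the difference of the log2 ratio ran from -0.23 to 0.17 for Fabp4 over Fabp1, from -0.11 to 0.073 for Fabp2 over Fabp1, from -0.28 to 0.23 for Slc27a1 over Slc27a2 and from -0.23 to 0.38 for Acsl5 over Acsl1, signs that rest on differences near 0. That of Slc27a1 over Slc27a2 was 0.0065 in the first count column and 0.023 with the replicate block. With 1 library left out or with the block, the permutation test of a ratio is too small to pass, so its p there says nothing about stability.

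Same-numbered samples of the groups correlated at -0.021, -0.074 and -0.0017 in their deviations from the group means. The labels do not state whether same-numbered mice shared housing or handling, and the main fit used no pairing. With the replicate block the log2 fold change of Cd36 was -1.03 and its adjusted p 0.485. The members at an unadjusted p under 0.05 numbered 1 with all libraries, 0 with library totals, 4 without PX-478 replicate 2 and 2 without saline replicate 3. Leaving out any other library gave 1. Of all 13693 genes tested, 477 were lower and 477 higher with all libraries, and 130 and 710 with library totals. Without PX-478 replicate 2 these were 594 and 594 of 13976 genes, and without saline replicate 3 they were 455 and 449 of 13470. The cause of these differences was not tested.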

Other observations

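On the TMM scale PX-478 replicate 2 was, of the 3 PX-478 libraries, the one nearest to the saline mean in 10 of 10 members, against 36.7% of all genes tested. With libraries scaled by their totals this held for 4 of 10 members, against 24.9%. Measured as distances on the log2 scale, the counts were 9 of 10 with TMM and 6 of 10 with library totals, against 36.7% and 24.7% of all genes. The pattern was noticed in these data and depends on the scaling.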
